A study of Mus musculus with 6 samples.

Results

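The genes described here are 10 components of the Notch pathway: the receptors Notch1, Notch2 and Notch3, the ligands Jag2, Dll1 and Dll4, the glycosyltransferase Lfng, and the target genes Hes1, Hey1 and Heyl. They were represented by all array probes that are not controls and whose RefSeq accession belongs to 1 of these gene symbols, which gave 12 of the 55681 distinct probes, and 10 of the 20887 genes that could be named. Notch1 and Notch2 had 2 probes each and the other genes 1. Of the 12 probes 11 passed the filter on dim probes and were tested. Expression was measured on 6 two-colour Agilent mouse arrays in C57BL/6 cells sorted by fluorescence from salt-stressed kidneys at postnatal day 1. The sorted cells were positive for both GFP and tdTomato, which marks descendants of the ureteric bud, the epithelium that forms the collecting ducts. The 3 MUT pools were Hoxb7cre+, R26RtdTomato and Bdkrb2f/f, so that the gene of the bradykinin B2 receptor was deleted where the Hoxb7 driver is active. The 3 WT pools were Hoxb7cre+, R26RtdTomato and Bdkrb2+/+, and thus carried the same Cre and reporter. Each pool was labelled with Cy5 and set against RNA of WT pool 1 in Cy3. Values are therefore log2 ratios to WT pool 1, so that on 1 array the RNA of WT pool 1 was hybridised against a second labelling of the same RNA. How many mice went into each pool was not stated in the labels, nor whether pools came from separate litters.

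Notch signalling passes between touching cells. A ligand of the Delta or Jagged family on one cell binds a Notch receptor on its neighbour, the receptor is cut by a metalloprotease and then by the gamma-secretase complex, and its intracellular domain joins the DNA-binding protein RBPJ and a Mastermind coactivator to switch on Hes and Hey repressors. Fringe enzymes such as Lfng add a sugar to the receptor and alter its response to Delta against Jagged ligands. In the developing kidney the pathway is known for its part in nephron segmentation, above all through Notch2, and for the choice between principal and intercalated cells in the collecting duct. Dll4 is best known from endothelium, and Notch3 and Heyl from mural cells of vessels.

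Promoter sequences were available for 7 of the 10 members from RefSeq (GRCm38.p6). The stretches below are the 250 bases before the start of the 3 members with a promoter entry that rose in MUT pools, shown because they differ in sites for the pathway's own factors. Capitals mark matches to the RBPJ core TGGGAA and to the E-box CACGTG, on either strand. They cover chr5:140607091-140607340 on the plus strand for Lfng, chr3:98013288-98013537 on the plus strand for Notch2, and chr17:15376933-15377182 on the minus strand for Dll1, at the more upstream of its 2 listed starts.
Lfng: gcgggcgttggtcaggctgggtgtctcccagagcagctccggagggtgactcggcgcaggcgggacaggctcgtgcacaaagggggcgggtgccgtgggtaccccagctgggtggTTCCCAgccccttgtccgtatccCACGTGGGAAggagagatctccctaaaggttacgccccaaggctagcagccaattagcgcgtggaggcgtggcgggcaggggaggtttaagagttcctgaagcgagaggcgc
Notch2: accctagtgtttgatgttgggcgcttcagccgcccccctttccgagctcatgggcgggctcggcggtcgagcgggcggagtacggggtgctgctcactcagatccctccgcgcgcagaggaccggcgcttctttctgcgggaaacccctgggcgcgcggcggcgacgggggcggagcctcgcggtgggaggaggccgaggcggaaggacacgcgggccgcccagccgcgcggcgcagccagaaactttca
Dll1: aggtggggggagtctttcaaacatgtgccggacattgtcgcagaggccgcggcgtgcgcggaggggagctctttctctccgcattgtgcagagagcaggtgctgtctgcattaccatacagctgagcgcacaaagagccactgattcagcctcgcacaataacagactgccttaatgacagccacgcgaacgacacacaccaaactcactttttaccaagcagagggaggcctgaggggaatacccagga
The Lfng promoter held 2 matches to the RBPJ core, the first from 135 to 130 and the other from 108 to 103 bases before the start. The second also matched GTGGGAA and overlapped the E-box, whose first base lay 112 bases before the start. The core was present in 21.6% of 32851 RefSeq promoter windows of this length, GTGGGAA in 5.42% and the E-box in 6.02%. None of these 3 motifs was found in the windows of Notch1, Notch2, Notch3, Jag2 or Dll4, or in either Dll1 window. The N-box CACNAG of Hes factors, present in 36.7% of windows on either strand, was found in Lfng, Notch1, Notch2, Notch3 and Dll4, and overlapped none of the other matches in Lfng. These matches describe the letters of the windows, and the arrays did not measure binding.

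On each array 27022 to 31310 probes were well above background in Cy5, all 6 arrays lay on 1 slide, and their number limits the precision. The deleted gene could not be followed, since its only probe stayed near background on every array and in both dyes. Bdkrb2 log2 ratios ran from -0.16 to 0.12 in WT and from -0.08 to 0.05 in MUT pools, so they give no check of the labels. Across 29002 tested probes, limma called 26.1% at a Benjamini-Hochberg adjusted p under 0.05, with 11.6% higher and 14.6% lower in MUT pools. Ratios were normalized by loess, so each difference is relative to the typical probe. The offset is uncertain: the median probe was 0.23 higher on the log2 scale in MUT pools with median centring and 0.98 higher with arrays set to 10 spike-in control probes. Of the called probes, 44.2% were higher in MUT after loess, 77.3% with median centring and 99.0% with the spike-ins. The spike-in setting moves all probes of an array by the same amount, so any fall smaller than 0.98 turns to a rise. One slide row carried all MUT pools together with WT pool 1, and the other row carried WT pools 2 and 3. With slide row as a block, each difference therefore sets the MUT pools against WT pool 1 alone. WT pools 2 and 3 then add only to the estimate of spread, so calls from that fit rest on no replicate of the WT side. Markers of the labelled collecting duct cells were lower in MUT pools: 8 of 8 tested principal cell markers and 9 of 11 ureteric lineage markers fell. In pools of cells, fewer cells of a type and less RNA per cell cannot be told apart.

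Of the 11 tested Notch probes, 5 were called higher and 2 lower in MUT pools. Among all tested probes 26.1% were called in either direction, and among named genes, by 1 probe each, 32.8%. The 5 that rose were Hey1, Heyl, Dll1, Lfng and 1 probe of Notch2, and the 2 that fell were Jag2 and Dll4. Notch1, Notch3 and Hes1 were not called. Pools did not overlap for 9 of the 11 probes, where 46.1% of all tested probes had groups without overlap. Rises were from 1.00 to 1.83 on the log2 scale, and the falls were 0.66 and 0.56.

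**Figure D1:**
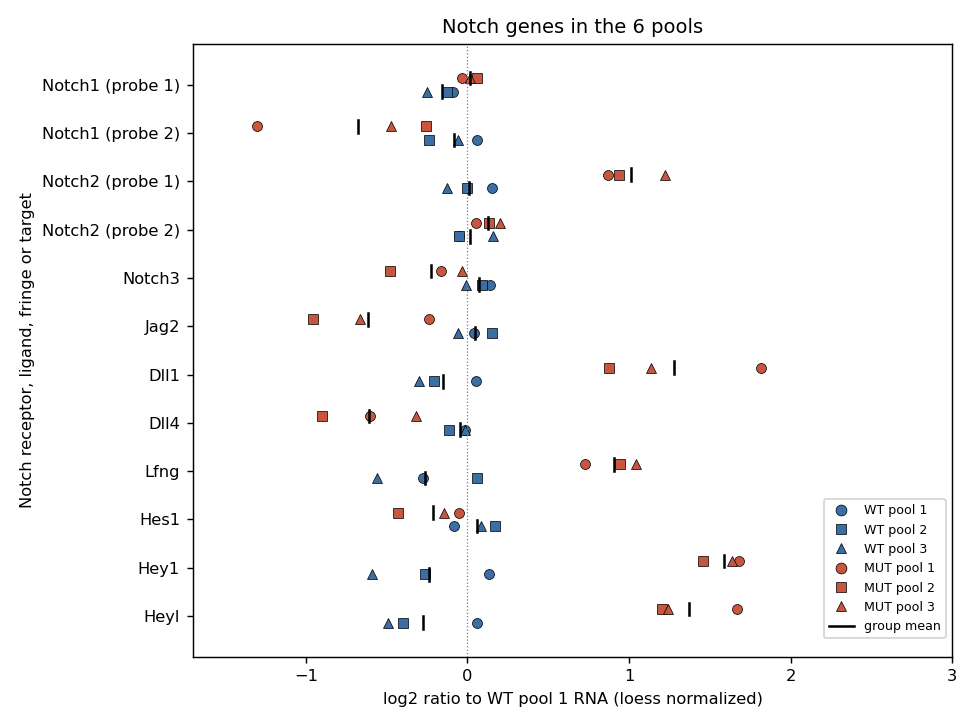
Log2 ratio to WT pool 1 RNA (x axis) for the 12 probes of the 10 Notch genes (y axis), with 1 point for each of 3 WT and 3 MUT pools and a bar at each group mean. For Hey1, Heyl, Dll1, Lfng and the first Notch2 probe all MUT points lie above 0.7, while no WT point of these probes lies above 0.2.

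Among the receptors, Notch2 was the member that rose. Notch2 is the receptor needed for proximal nephron identity. At probe A_52_P289213 its log2 ratios were 0.15, -0.00 and -0.13 across WT pools 1 to 3, and 0.87, 0.94 and 1.22 across MUT pools 1 to 3. Every MUT pool was above every WT pool, and MUT pool 3 was the highest. The difference was a 2.00-fold rise (log2 1.00 ± 0.13 SE, n = 3 pools per group, limma adjusted p = 0.00161). Within the slide row that holds both groups, the MUT mean was 0.86 above WT pool 1, the only WT pool there. The other Notch2 probe, A_55_P1982793, cleared background on all 3 MUT arrays but on no WT array. Its ratios were -0.06, -0.05 and 0.16 in WT pools and 0.05, 0.14 and 0.20 in MUT pools, which overlapped. This probe was not called (adjusted p = 0.472). The rise of Notch2 thus rests on 1 of its 2 probes.

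Notch1, a receptor of endothelium and many progenitor cells, was not called. At probe A_55_P2171897 its log2 ratios were 0.06, -0.24 and -0.06 across WT pools 1 to 3, and -1.30, -0.26 and -0.47 across MUT pools 1 to 3. MUT pool 1 stood far below the other MUT pools, and MUT pool 2 was barely under WT pool 2. The difference was -0.60 ± 0.25 (SE, n = 3 per group, limma adjusted p = 0.121), and it was 0.38 with the spike-in controls. Without MUT pool 1 it was -0.28, and with array weights -0.37. The other Notch1 probe, A_55_P2047168, was well above background on no WT array and on 2 of 3 MUT arrays, and was not tested. Its ratios ran from -0.25 to -0.09 in WT pools and from -0.03 to 0.06 in MUT pools. MUT pools were above WT pools at this probe and below them at the tested one. Notch3, a receptor of vascular mural cells, had ratios of 0.14, 0.09 and -0.01 across WT pools 1 to 3, and -0.17, -0.48 and -0.04 across MUT pools 1 to 3. The groups did not overlap, but MUT pool 3 lay close to WT pool 3. The difference of Notch3 was -0.30 ± 0.13 (SE, n = 3 per group, limma adjusted p = 0.137), and 0.68 with the spike-in controls. It was -0.17 without MUT pool 2 and -0.0057 with median centring.

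The ligands moved in both directions. Dll1, a Delta ligand known from early nephron structures, had log2 ratios of 0.05, -0.20 and -0.30 across WT pools 1 to 3, and 1.82, 0.88 and 1.14 across MUT pools 1 to 3. The groups lay far apart, and MUT pool 1 was the highest. Dll1 rose 2.69-fold (log2 1.43 ± 0.23 SE, n = 3 per group, limma adjusted p = 0.00387). Within the shared slide row the difference was 1.23, which was not called with the row as a block (adjusted p = 0.0821).

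Jag2, a Jagged ligand, fell by 0.66 on the log2 scale (SE 0.18, n = 3 per group, limma adjusted p = 0.0298). Its ratios were 0.04, 0.15 and -0.06 across WT pools 1 to 3, and -0.24, -0.95 and -0.67 across MUT pools 1 to 3. All MUT pools were below all WT pools, with MUT pool 1 the nearest to them. Jag2 was called under 9 of 19 alternatives (adjusted p from 0.000762 to 0.443), was lost when any WT pool or MUT pool 2 or 3 was left out, and stood at 0.32 with the spike-in controls.

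Dll4, the Delta ligand of endothelial tip cells and arteries, fell by 0.56 (SE 0.15, n = 3 per group, limma adjusted p = 0.0304). Its ratios were -0.01, -0.12 and -0.02 across WT pools 1 to 3, and -0.60, -0.90 and -0.32 across MUT pools 1 to 3. The WT pools lay within a narrow range, and all MUT pools were below it. Dll4 was called under 12 of 19 alternatives (adjusted p from 0.0129 to 0.308), was lost when any WT pool or MUT pool 2 was left out, and stood at 0.42 with the spike-in controls. With the scanner software's processed signals the fall was 1.24. Within the shared slide row the differences of Jag2 and Dll4 were -0.66 and -0.60, neither of them called with the row as a block (adjusted p = 0.211 and 0.185).

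Lfng, the fringe enzyme whose promoter is printed above, rose 2.24-fold (log2 1.16 ± 0.17 SE, n = 3 per group, limma adjusted p = 0.00245). Its ratios were -0.28, 0.06 and -0.56 across WT pools 1 to 3, and 0.73, 0.94 and 1.04 across MUT pools 1 to 3. MUT pools were close to each other and above all WT pools, which spread more widely. The value of -0.28 in WT pool 1 is that RNA against itself, so it is no difference in expression. Dye bias of this probe and error of that array cannot be told apart in it. Within the shared slide row the difference was 1.18, against WT pool 1 as the only WT pool.

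Hey1 and Heyl, both targets, had the largest rises of the 10 genes. Hey1, a basic helix-loop-helix repressor switched on by Notch, had log2 ratios of 0.13, -0.26 and -0.59 across WT pools 1 to 3, and 1.68, 1.46 and 1.63 across MUT pools 1 to 3. The MUT pools agreed within 0.12 (SD, n = 3), and the WT pools spread by 0.36 (SD, n = 3) with WT pool 3 lowest. Hey1 rose 3.56-fold (log2 1.83 ± 0.18 SE, limma adjusted p = 0.000563). Heyl, a related repressor best known from vascular smooth muscle, had ratios of 0.06, -0.40 and -0.49 across WT pools 1 to 3, and 1.67, 1.20 and 1.24 across MUT pools 1 to 3. All MUT pools were above 1 and all WT pools below 0.1. Heyl rose 3.13-fold (log2 1.65 ± 0.18 SE, n = 3 per group, limma adjusted p = 0.000857). Within the shared slide row the rises were 1.46 for Hey1 and 1.31 for Heyl, against WT pool 1 as the only WT pool.

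Hes1, the widely used Notch target that also answers to other signals, was not called. Its ratios were -0.08, 0.17 and 0.09 across WT pools 1 to 3, and -0.05, -0.43 and -0.15 across MUT pools 1 to 3. MUT pool 1 lay within the WT range, so the groups overlapped. The difference was -0.27 ± 0.13 (SE, n = 3 per group, limma adjusted p = 0.17), and its sign turned to 0.02 with median centring and 0.71 with the spike-in controls. Without MUT pool 2 it was -0.16, and with the slide row as a block -0.13.

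**Figure D2:**
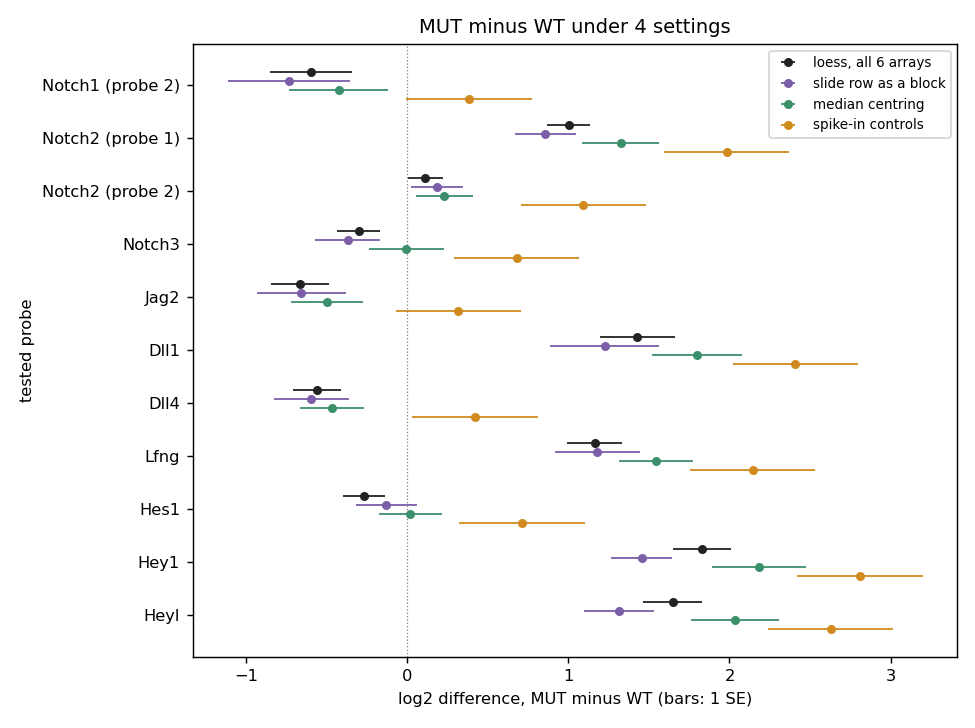
Log2 difference of MUT minus WT (x axis, bars of 1 SE) for the 11 tested Notch probes (y axis) under loess, with the slide row as a block, with median centring and with spike-in controls. Hey1, Heyl, Dll1, Lfng and the first Notch2 probe stay above 0.8 under these 4 settings, while Notch1, Notch3, Jag2, Dll4 and Hes1 are below 0 under loess and above 0 with the spike-in controls.

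Most other genes of the pathway were not called. Of 69 listed genes 66 were on the array and 61 tested, of which 9 rose, 4 fell and 48 were not called, against 32.8% of 14585 named genes called, 14.0% higher and 18.8% lower. The median difference was -0.02, as it was over all named genes. With the slide row as a block 0 of the 61 were called by limma (8 at an unadjusted p under 0.05), and 4 were called without WT pool 3. With the spike-in controls 40 were called, all higher, and with array weights 20. With median centring 11 were called, all of them higher, so that the 4 falls lost their calls: Mfng was then at -0.40 (adjusted p = 0.183), Bhlhe40 at -0.73 (0.061), Tle2 at -0.18 (0.528) and Furin at -0.25 (0.441). These counts take the brightest tested probe of a gene, and 3 genes counted as not called had another probe that was called. The 9 rises include Dner and Hey2, which passed the filter on dim probes only through their MUT arrays. For these genes a rise is partly built into the filter.

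Of 7 tested genes listed as other targets or relatives of targets, 2 rose and 1 fell. Whether Notch controls each of them was not tested. Hes5, a Notch target of nephron precursors, had log2 ratios of 0.12, -0.23 and -0.69 across WT pools 1 to 3, and 0.44, 0.76 and 1.11 across MUT pools 1 to 3, with no overlap. It rose 2.05-fold (log2 1.04 ± 0.23 SE, n = 3 per group, limma adjusted p = 0.0149), and was not called without WT pool 3 (0.83). Hey2, the third Hey gene, rose by 0.78 ± 0.21 (SE, adjusted p = 0.0315) and was not called without WT pool 2 or 3. It cleared background on only 1 WT array, so only its MUT arrays brought it into the test. It was at 2.43 with the scanner software's processed signals (adjusted p = 0.0803) and at 0.51 with the slide row as a block (adjusted p = 0.353), both without a call. Bhlhe40, a related repressor, fell by 0.98 ± 0.19 (SE, adjusted p = 0.00853), and stood near 0 with the spike-in controls (-0.0027).

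Of 4 tested other receptors and ligands 2 rose, 1 of them Dner, which only its MUT arrays brought into the test. Jag1, the Jagged ligand of intercalated cells and of early nephrons, had ratios of 0.05, 0.12 and -0.14 across WT pools 1 to 3, and 0.58, 0.48 and 0.63 across MUT pools 1 to 3. It rose 1.47-fold (log2 0.56 ± 0.11 SE, n = 3 per group, limma adjusted p = 0.00849), in the direction opposite to Jag2 after loess. Notch4, a receptor of endothelium, was at -0.30 ± 0.12 (SE, adjusted p = 0.108; called at -0.41 without MUT pool 1), and at 0.68 with the spike-in controls and -0.0053 with median centring. Dner, an atypical ligand, was called (adjusted p = 0.0329) and was well above background on no WT array, which gives a MUT signal at least 1.16-fold that of WT, counted from the lowest signal that was well above background on each WT array. With processed signals its call was lost (adjusted p = 0.0636). The Dner call was lost without any 1 WT pool, MUT pool 2 or MUT pool 3. Neither probe of Dll3 was tested.

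Among 7 tested fringes and other sugar-adding enzymes, Mfng, the manic fringe, fell by 0.68 ± 0.11 (SE, adjusted p = 0.00344), while Lfng rose. The other Mfng probe fell by 0.53, and with the spike-in controls the first was at 0.30. Rfng, the radical fringe, was at -0.14 ± 0.14 (SE, adjusted p = 0.477), and at 0.17 with median centring. Without single pools it ran from -0.27 to -0.06, and its other probe was at -0.44 (adjusted p = 0.118) with all MUT pools below all WT pools. Gxylt2, a xylosyltransferase, rose by 0.51 ± 0.12 (SE, adjusted p = 0.0152) and at its other probe by 1.01. Pofut1, which puts fucose on Notch, rose by 0.34 ± 0.10 (SE, adjusted p = 0.044), with its other probe at 0.12 and not called. The Gxylt2 call was lost without WT pool 3 or MUT pool 2, and the Pofut1 call without any 1 WT pool or MUT pool 2.

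Of 8 tested proteases and secretase subunits, by their brightest probes, 1 fell and none rose. This was Furin, the convertase that processes the Notch precursor, which fell by 0.53 ± 0.12 (SE, adjusted p = 0.0163) and was at 0.45 with the spike-in controls. Aph1b, a gamma-secretase subunit, was not called at its brighter probe (-0.62, adjusted p = 0.126) but fell by 0.74 at the other (adjusted p = 0.00863). In the nuclear complex and its corepressors 2 of 21 rose and 1 fell by the same rule. Maml1, a Mastermind coactivator, rose by 0.68 ± 0.12 (SE, adjusted p = 0.00566), and the corepressor Tle4 by 0.49 ± 0.13 (SE, adjusted p = 0.0312), with its other probe at 0.14. The corepressor Tle1 was not called at its brightest probe (0.54, adjusted p = 0.228) or at another (0.15), and rose by 0.95 at the third (adjusted p = 0.00902). The corepressor Tle2 fell by 0.49 ± 0.11 (SE, adjusted p = 0.0123) and at its other probe by 0.51, and was at 0.49 with the spike-in controls. The 2 probes of Rbpj differed in sign, at 0.26 ± 0.14 (SE, adjusted p = 0.197) and -0.37 ± 0.16 (SE, adjusted p = 0.124), and neither was called. Of 14 genes of ligand and receptor trafficking 1 rose, Numbl, a relative of the Notch inhibitor Numb, by 0.52 ± 0.10 (SE, adjusted p = 0.00982). Neurl1a, a ubiquitin ligase of Notch ligands, was not called at its brightest probe and fell by 0.34 at another (adjusted p = 0.0392). Without WT pool 3 the calls of Numbl, Tle2, Tle4 and Furin were lost. The Furin call was also lost without WT pool 1, and that of Tle4 without WT pool 2, MUT pool 2 or MUT pool 3.

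**Figure D3:**
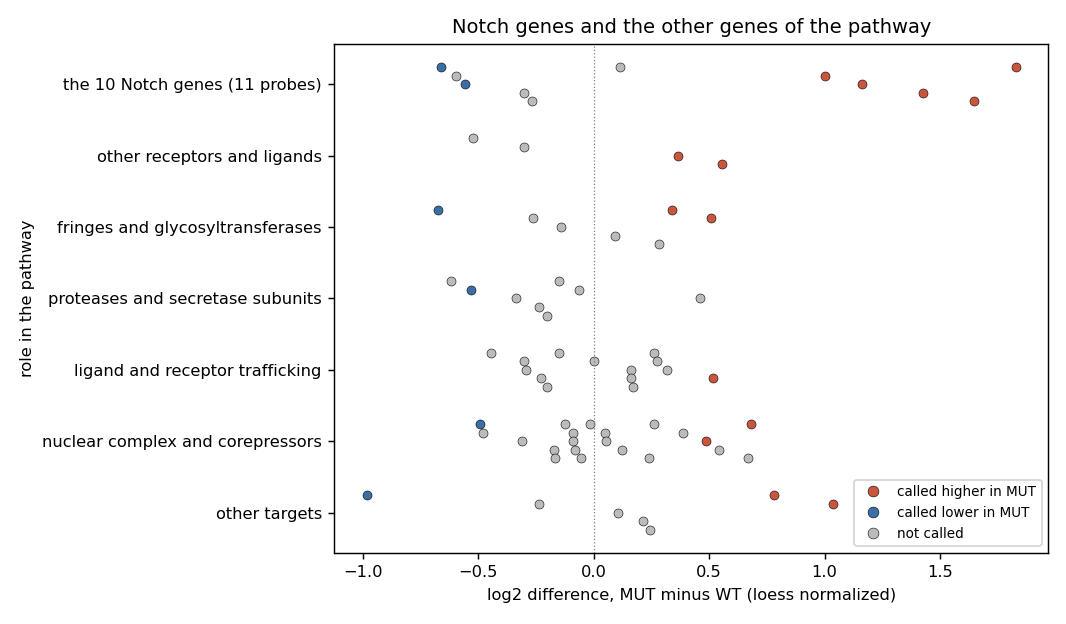
Log2 difference of MUT minus WT after loess (x axis) for the 11 tested probes of the 10 Notch genes and for 61 other genes of the pathway by role (y axis), 1 point per probe or gene, coloured by the call at an adjusted p under 0.05 (small vertical steps only separate points). The 5 rises from 1.00 to 1.83 in the top row stand beside 1 other value above 1, that of Hes5 at 1.04. The 10 genes of the top row were chosen with earlier results of these data known, so the rows are not an even comparison.

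The genes nearest in pattern were sought for the 4 members with the largest called differences, as the root mean square difference of log2 ratios over the 6 arrays among 14548 other named genes. Hey1 was nearest to Cpe, Prrx2 and Adgra2, at 0.09, 0.10 and 0.10. Prrx2 is a homeobox gene of mesenchyme, and rose 3.44-fold. Heyl was nearest to Tnni1, Srpx and Gm4788, at 0.09, 0.09 and 0.10. Dll1 was nearest to Emilin1, Kif15 and Pid1, at 0.16, 0.16 and 0.18. Emilin1 encodes an elastic fibre protein and Kif15 a mitotic kinesin. Like Dll1, both had their highest ratio in MUT pool 1, at 1.62 and 1.73, and so did Pid1. These genes were picked for closeness to Dll1 over the same 6 arrays, so the shared peak is largely a product of that choice. Lfng was nearest to P3h3, Nme4 and Srpx2, at 0.14, 0.16 and 0.17.

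Markers of other cells also differed between the groups, not always in the direction of the Notch genes set beside them here. Beside the rises of Hey1, Dll1, Lfng, Notch2 and Hes5, nephron progenitor markers had medians from -0.01 to 0.07 in WT pools and from 1.54 to 2.14 in MUT pools, with 7 of 8 tested markers called higher. Six2, a transcription factor of these progenitors, rose by 2.56. Of 7 early nephron markers 4 rose and 1 fell. Wnt4, which starts epithelial conversion, rose by 2.13, while Pou3f3 fell by 1.10 (limma adjusted p = 0.000937). Lhx1 and Pax8 were not called. Beside Heyl, which rose, and Notch3, at -0.30 and not called, 5 of 11 mural cell markers rose and none fell. The mural medians ran from -0.59 to 0.04 in WT pools and from 0.25 to 0.32 in MUT pools. Pdgfrb, the receptor that marks pericytes, rose by 1.69, while Myh11 of mature smooth muscle was at -0.04 ± 0.20 (SE, adjusted p = 0.895). Renal stroma markers rose in 8 of 10 tested cases, with medians from -1.43 to 0.12 in WT pools and of at least 1.27 in MUT pools. WT pools 2 and 3 were lowest in the stroma and mural lists. They were also the lowest WT pools for Hey1, Heyl, Dll1, Hes5 and the called Notch2 probe. This did not hold for Lfng, where WT pool 2 was the highest WT pool (0.06). WT pool 1 was set against its own RNA, and WT pools 2 and 3 shared the other slide row. Reference, slide row and cell content cannot be told apart in this pattern.

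Beside the fall of Dll4 and the values of Notch1 and Notch4, 12 of 16 endothelial markers fell and none rose. Their medians ran from -0.06 to 0.01 in WT pools and from -0.91 to -0.75 in MUT pools. Pecam1, Cdh5 and Kdr, a set of defining endothelial genes, fell by 0.81, 0.69 and 1.35. Beside the rise of Jag1 and the fall of Jag2 after loess, 9 of 9 intercalated cell markers fell. Medians of this list ran from -0.36 to 0.30 in WT pools and from -2.63 to -2.25 in MUT pools. Among loop of Henle and distal tubule markers 7 of 7 fell. Of 8 leukocyte markers 7 rose and 1 fell, and of 7 podocyte markers 1 rose. Pecam1, Pdgfrb, Six2 and the intercalated cell factor Foxi1 were well above background on all 6 arrays. The part of these cells in the Notch results was not tested.

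**Figure D4:**
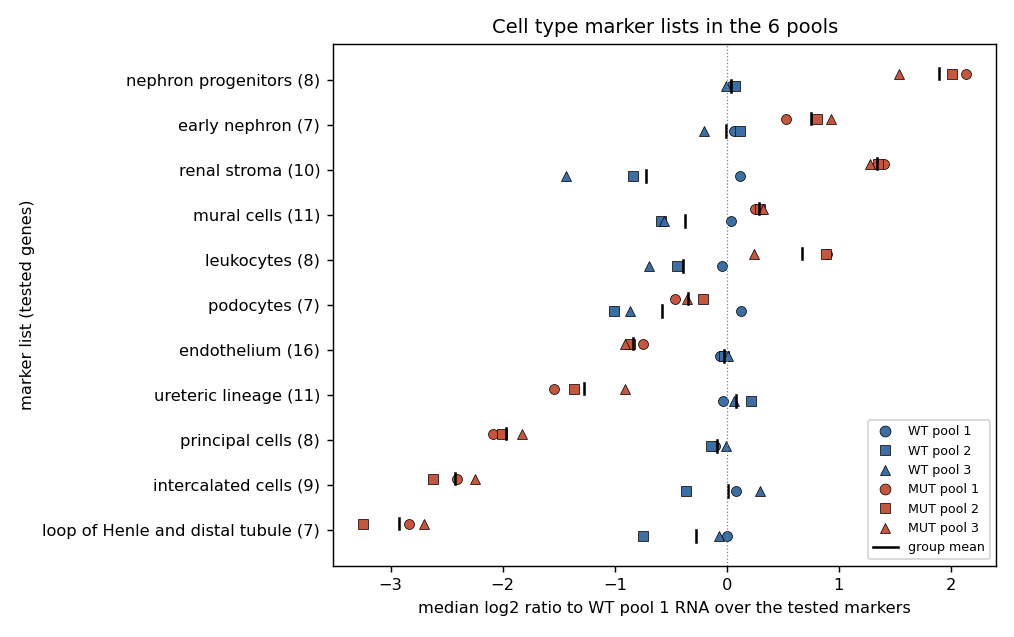
Median log2 ratio to WT pool 1 RNA over the tested markers of each cell type list (x axis), by list (y axis, with the number of tested genes), with 1 point for each of 3 WT and 3 MUT pools and a bar at each group mean. Nephron progenitor medians lie from 1.54 to 2.14 in MUT pools and loop of Henle and distal tubule medians from -3.25 to -2.70, while podocyte medians overlap between the groups.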

How the data were processed

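Gene expression in 3 WT and 3 MUT pools was measured on 2-colour arrays. Scanning software was Agilent Feature Extraction 10.7.3.1 (source: the submitters' processing notes), and its files, as deposited, hold the median intensity of each spot and of its local background in both dyes, besides processed signals. The submitters' value matrix, as deposited, holds the log10 ratio of Cy5 to Cy3, which matched the scanner files within 0.00499, has a median of 0 on each array and was an alternative. Here background was corrected by normexp (offset 50), log2 ratios were normalized within arrays by loess, and control and outlier spots were left out. An offset shrinks differences of dim probes. A probe was tested where either group had it well above background in Cy5 on each of its 3 arrays (29002, or 52.1%). limma 3.58.1 in R 4.3.3 was fitted to all 6 arrays with no covariate, with Benjamini-Hochberg adjustment over all tested probes. Figures used Python 3.11.15 and matplotlib 3.10.9. The pipeline was run on simulated arrays with known changes. It called 5.97% of log2 changes of 0.5, 47.8% of those of 1 and 87.9% of those of 2. Their median estimates were 0.379, 0.758 and 1.6. Few probes were changed there, unlike in these data, so these shares need not hold here. A gene that was not called may still have changed. Probes were named through RefSeq accessions (27509 probes), and pathway and marker lists use the brightest tested probe of a gene. All members of the 10 genes are named, and of the pathway list those fixed by name (Notch4, Jag1, Dll3, Hes5, Hey2, Mfng, Rfng) and those called without overlap of pools. Rbpj, Aph1b, Tle1, Neurl1a and single markers were named after their values were seen. The members and lists were chosen with earlier results of these data known. Nothing says that pools came from separate litters, so p-values measure only the spread between these pools, which may be technical.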

Additional observations from a re-analysis of the deposited data

How the results depend on the processing

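The 5 probes called higher (Hey1, Heyl, Dll1, Lfng and Notch2) kept their direction under all 19 alternatives. Each was called under all of them except Dll1, whose call was lost once slide row was a block, leaving 4. The alternatives were not independent. The filters, the pool-number block and limma's trend and robust options left these differences unchanged, and the spike-in controls added 0.98 to each. Processed signals and the deposited value table gave nearly the same differences. The number called higher was 6 with the spike-in controls, where the other Notch2 probe was added. The 2 probes called lower were less stable. The count was 1 with processed signals, 1 with the deposited value table, 0 with median centring (2 at an unadjusted p under 0.05 in limma), 0 with the spike-in controls (0 unadjusted) and 0 with the slide row as a block (1 unadjusted), and 0 to 2 when single pools were left out. Of the pathway list, 13 genes were called, against 40 with the spike-in controls, 20 with array weights, 0 with the slide row as a block (8 unadjusted), and 4 to 19 when single pools were left out. Of 102 tested marker genes 79 were called, and 46 with the row as a block. That block leaves WT pool 1 as the only WT pool in the row of the MUT pools.

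Signs turned with the spike-in controls for Notch1 (0.38), Notch3 (0.68), Jag2 (0.32), Dll4 (0.42), Hes1 (0.71), Notch4 (0.68), Mfng (0.30), Rfng (0.84), Tle2 (0.49) and Furin (0.45), and with median centring for Hes1 (0.019) and Rfng (0.17). The median over all tested probes was 0.98 with the spike-in controls and 0.23 with median centring. The spike-in setting takes 1 value off all probes of an array, so any fall smaller than 0.98 must turn, whatever the gene. The values taken off ran from -0.10 to 0.93 in WT pools and from -0.77 to -0.30 in MUT pools. Whether spike-ins were added in equal amount is not known. With median centring the 11 called pathway genes were all higher. Pool numbers are shared between the groups, but same-numbered pools deviated together only weakly (correlations of 0.14, 0.07 and 0.20), although each pool correlated best with its own number. With pool number as a replicate block 5 member probes were called higher and 2 lower, and 12 pathway genes, with Tle4, Dner and Pofut1 losing their calls. Dim probes limit the second probes of Notch1 and Notch2.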
